A study of Mus musculus with 8 samples.

Results

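The genes described here carry lipid out of cells and between them: the apolipoprotein genes Apoe, Apoc1, Apoc2 and Apoc4, which lie side by side on chromosome 7, the efflux transporters Abca1 and Abcg1, the lipid transfer protein gene Pltp, the lipoprotein receptor gene Lrp1, and Mylip, whose product tags lipoprotein receptors for degradation. They were chosen by symbol, and each matched 1 Ensembl identifier, which gave 9 members among the 55573 genes in the deposited count table. Sorted brain microglia of 8 mice were sequenced at postnatal day 60, 1 library per mouse, from 4 controls and from 4 mutants of the genotype Smad2/3 fl/fl;Cx3cr1 Cre. SMAD2 and SMAD3 are the transcription factors of the canonical TGFβ pathway. Cre driven from the Cx3cr1 locus deletes floxed alleles in microglia and in related macrophages, so macrophages at the borders of the brain lose the same alleles. The control mice are labelled WT, while the study's Methods describe controls as usually Cre carriers with 1 floxed allele; no agent was given to either group. The question put to these data is how the lipid export genes of sorted microglia differ when Smad2 and Smad3 are deleted.

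In the brain, cholesterol does not arrive from the blood and is passed between cells on particles built around apolipoprotein E. ABCA1 loads cholesterol and phospholipid onto lipid-poor APOE, ABCG1 adds cholesterol to the growing particle, PLTP moves phospholipid between particles, and endocytic receptors such as LRP1 take the particles up. Apoe, the Apoc genes, Abca1, Abcg1, Pltp and Mylip are textbook targets of the liver X receptors (LXR), which sense oxysterols. Astrocytes are the main source of APOE in the healthy brain, and microglia and border-associated macrophages make it too.

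Each library held between 35639502 and 41946479 reads counted on genes, and values are given as counts-per-million (CPM) scaled by TMM, which corrects for a few very abundant genes taking a large share of a library. Smad3 stood at 39.4 to 56.8 CPM in controls and 9.60 to 35.1 CPM in mutants (adjusted p = 0.0429, edgeR's quasi-likelihood test), and Smad2 at 62.7 to 92.3 against 42.6 to 75.8 CPM (adjusted p = 0.340). Counts over a whole gene also take reads from exons that Cre leaves in place, so these levels do not measure the deletion directly, and mutant replicate 3 had the highest level of both among the mutants. Xist, expressed from the inactive X chromosome, stood at 99.3 to 183 CPM in controls and at 0.0276 to 0.561 in mutants, and Y-linked Ddx3y at 0.0269 to 0.224 and 9.73 to 59.7 CPM, so sex and genotype cannot be told apart in any comparison below. The sorted cells carried microglial markers, whose summed level over 10 genes was 34000 to 52100 CPM in controls and 5540 to 7890 CPM in mutants, with all 10 called lower (edgeR, adjusted p under 0.05). Cx3cr1 is among these 10, and any effect of the Cre allele at that locus on its counts was not tested. The summed level of 10 border-associated macrophage markers was 209 to 282 CPM in controls and 2190 to 2950 CPM in mutants, with 8 of 10 higher. Over all genes tested, 7.97% were called lower and 4.36% higher.

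The promoters of the 3 called genes that RefSeq's promoter table holds are shown because Smad2 and Smad3 are the genes targeted in the mutants and these genes are textbook LXR targets. Each is 300 bases, from 250 before to 50 after the annotated start, on GRCm38.p6, read on the strand of the gene. They are Apoe at chr7:19699139-19699438, Apoc4 at chr7:19681411-19681710 and Pltp at chr2:164857659-164857958, all 3 on the minus strand. Capitals mark CAGAC, the core of a SMAD binding element, and GAGGAA, the core bound by the myeloid factor PU.1, on either strand, so that TTCCTC is GAGGAA read from the other side.
Apoe: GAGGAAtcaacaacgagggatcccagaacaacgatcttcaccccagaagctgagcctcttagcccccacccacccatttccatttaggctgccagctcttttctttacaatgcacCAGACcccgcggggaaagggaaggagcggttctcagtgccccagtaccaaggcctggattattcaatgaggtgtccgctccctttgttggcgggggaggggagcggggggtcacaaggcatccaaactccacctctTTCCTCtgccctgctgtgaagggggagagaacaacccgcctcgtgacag
Apoc4: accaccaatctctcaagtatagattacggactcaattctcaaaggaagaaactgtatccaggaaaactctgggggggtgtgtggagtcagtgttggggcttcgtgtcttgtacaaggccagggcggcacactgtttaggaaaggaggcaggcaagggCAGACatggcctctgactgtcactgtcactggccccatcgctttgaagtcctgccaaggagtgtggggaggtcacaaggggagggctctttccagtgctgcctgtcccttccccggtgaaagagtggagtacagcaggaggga
Pltp: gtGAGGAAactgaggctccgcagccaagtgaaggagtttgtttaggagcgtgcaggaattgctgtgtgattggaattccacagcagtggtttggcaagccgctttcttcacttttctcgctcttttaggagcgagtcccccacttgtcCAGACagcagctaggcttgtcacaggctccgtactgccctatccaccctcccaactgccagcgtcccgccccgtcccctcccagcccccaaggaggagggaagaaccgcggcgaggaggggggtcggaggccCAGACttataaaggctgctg
CAGAC occurred at -135 in Apoe, -93 in Apoc4, and -102 and 31 in Pltp, counted from the start site, and at -239 in Apoc2. These letters are common, and 49.6% of all 32851 promoter windows hold them. GAGGAA occurred at -250 and, on the other strand, at 2 in Apoe and at -248 in Pltp, against 28.3% of all windows. The palindrome GTCTAGAC, held by 0.213% of windows, and an LXR-type repeat of AGGTCA or AGTTCA spaced by 4 bases, held by 0.0274%, were in none of the 7 member promoters given, and those of Abca1, Lrp1 and Mylip held none of the letters searched. A match in these windows is a description of the letters only.

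Of the 9 members, 8 passed the filter on low counts. Apoe, Apoc1, Apoc4, Pltp and Abcg1 were higher in mutants by edgeR's quasi-likelihood test at an adjusted p under 0.05, none of the 8 was lower, and Abca1, Lrp1 and Mylip passed in neither direction. Over the 20153 genes tested, 12.3% were called, 4.36% as higher and 7.97% as lower in mutants. DESeq2 called Abca1 as well, which made 6 members higher, against 20.7% of 22931 genes called in either direction, 9.11% as higher and 11.6% as lower. The 2 groups did not overlap for 6 of the 8 members, against 22.1% of all tested genes, and in all 6 the mutants were above, as in 9.04% of tested genes. The median log2 fold change of mutants over controls was 1.39 over the 8 members and 0.0112 over all genes. The members were chosen with earlier results of these data known, so these shares and medians describe them and test nothing. Apoc4 passed the filter through its mutant libraries alone, and without it 4 of 7 members were called higher, with a median of 0.84. These are levels of bulk RNA, in which fewer cells of a type and less RNA per cell cannot be told apart.

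**Figure D1:**
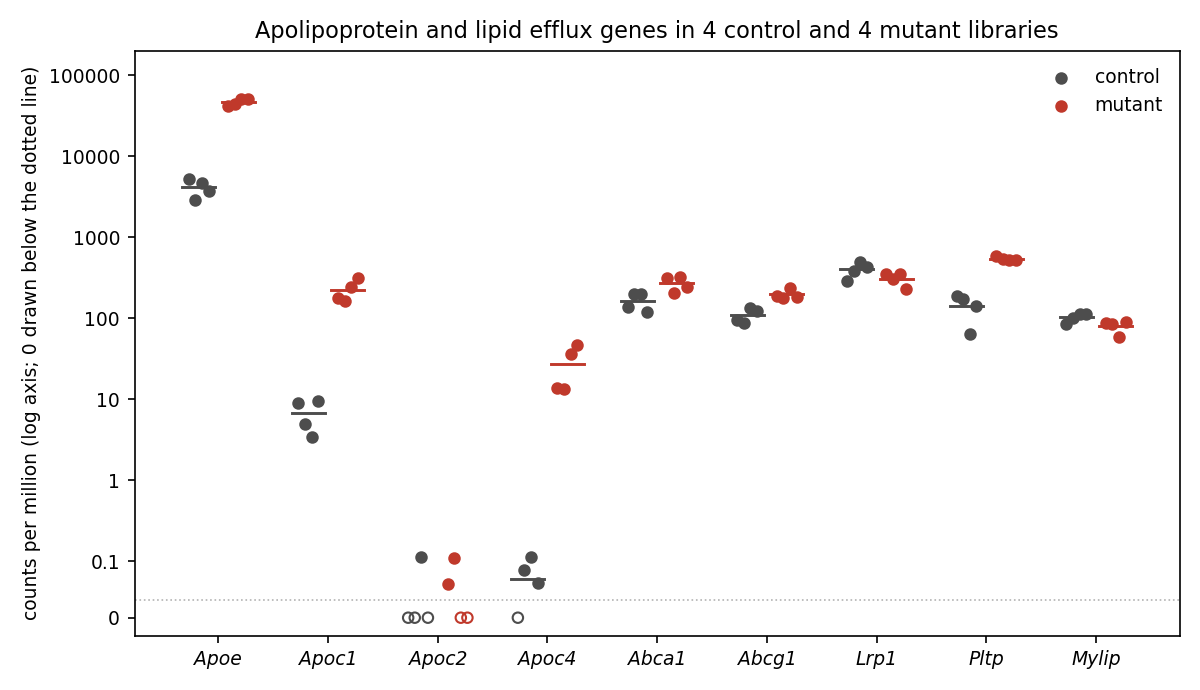
CPM on a log axis for the 9 members in each library, with controls in grey and mutants in red; each point is 1 mouse, horizontal lines are group means of the tested genes, and open circles below the dotted line are libraries at 0. Apoe, Apoc1, Apoc4, Abca1, Abcg1 and Pltp separate the groups, whereas Lrp1 and Mylip overlap and Apoc2 has 0 to 5 counts in every library.

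Apoe, the main lipid carrier of the brain (ENSMUSG00000002985, chr7:19696109-19699188 on the minus strand of GRCm38), had by far the most reads of the members. Controls 1 to 4 held 5266, 2880, 4660 and 3727 CPM, and mutants 1 to 4 held 41550, 43720, 51220 and 50940 CPM. The lowest mutant lay far above the highest control, and the mutants were spread less in relative terms, with a coefficient of variation of 10.6% against 25.4%. Mean levels were 4133 ± 1048 CPM (SD, n = 4) and 46860 ± 4955 CPM (SD, n = 4), an 11.3-fold rise (95% confidence interval 7.84 to 16.4), or 3.50 ± 0.24 (SE) on the log2 scale (adjusted p = 6.32e-05, edgeR). One gene thus took 0.289% to 0.516% of all counts in controls and 4.40% to 5.18% in mutants. Neither Apoe nor Apoc1 shares an annotated exon with another gene.

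Apoc1 (ENSMUSG00000040564, chr7:19689481-19692660), which lies 3.4 kb from Apoe and encodes a small apolipoprotein that inhibits uptake of particles and lipoprotein-modifying enzymes, was low in controls. Levels were 8.91, 4.86, 3.44 and 9.43 CPM in controls 1 to 4 and 179, 161, 245 and 313 CPM in mutants 1 to 4. No mutant came near a control. The means of 6.66 ± 2.96 and 224 ± 69.0 CPM (SD, n = 4 each) differed 33.7-fold (interval 17.8 to 63.7), a log2 fold change of 5.07 ± 0.41 (SE) (adjusted p = 1.14e-04, edgeR). Unlike Apoe, Apoc1 varied widely among mutants, from 161 to 313 CPM.

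Apoc4 (ENSMUSG00000074336, chr7:19678083-19681479), an apolipoprotein gene best known from liver, went from near the limit of detection to a moderate level. It had 0, 3, 4 and 2 counts in controls 1 to 4, and 534, 619, 1290 and 1700 counts in mutants 1 to 4. In CPM the mutants stood at 13.9, 13.4, 35.9 and 46.9, so that replicates 1 and 2 stood well below replicates 3 and 4. Against the 9 control counts the fitted fold was 433 (interval 130 to 1440), or 8.76 ± 0.77 (SE) on the log2 scale (adjusted p = 1.76e-04, edgeR). Its size rests on these few control reads and is far less precise than its direction. Apoc4 shares 119 of its 2537 exon bases (4.69%) with Gm44805, a readthrough gene on the same strand that spans Apoc2 as well.

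Apoc2 (chr7:19671579-19677941), which encodes the cofactor of lipoprotein lipase, was not tested. It had 0, 0, 4 and 0 counts in controls 1 to 4 and 2, 5, 0 and 0 counts in mutants 1 to 4. Of its 813 exon bases, 646 (79.5%) are also exons of Gm44805 on the same strand, and Gm44805 itself had 0 counts in all 8 libraries. A counting rule that leaves out reads falling on more than 1 gene leaves only 167 bases for Apoc2, and the rule used is not given in the sources used here, so its level cannot be read from these counts.

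The proportions among the apolipoprotein transcripts shifted within libraries too, a comparison that needs no scaling between libraries. Per 1000 Apoe counts there were 1.69, 1.69, 0.738 and 2.53 Apoc1 counts in controls 1 to 4 and 4.31, 3.68, 4.78 and 6.14 in mutants 1 to 4, with no overlap. Per 1000 Apoc1 counts there were 0, 16.0, 32.5 and 5.70 Apoc4 counts in controls and 77.4, 82.9, 147 and 150 in mutants. Mutants 3 and 4, which had the most Apoc4 relative to Apoc1, also had the highest Apoc1 levels.

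**Figure D2:**
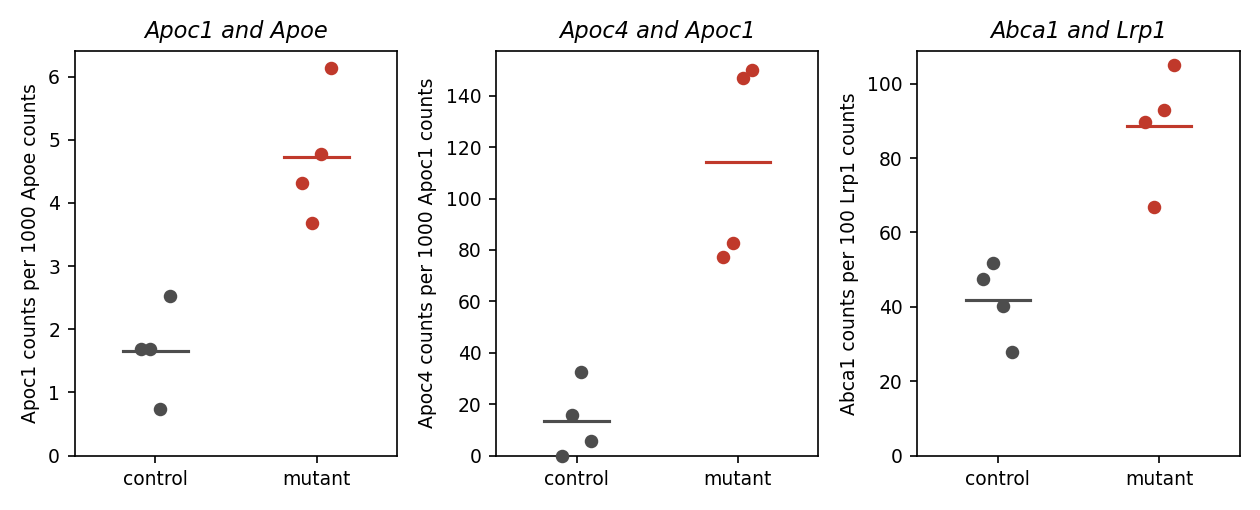
Ratios of read counts within each library for Apoc1 to Apoe, Apoc4 to Apoc1 and Abca1 to Lrp1, on linear axes that start at 0; points are mice, lines are means, grey is control and red is mutant. In all 3 panels the 4 mutants lie above the 4 controls, for example at 3.68 to 6.14 against 0.738 to 2.53 Apoc1 counts per 1000 Apoe counts. The ratios were not tested, and neither Abca1 nor Lrp1 was called.

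None of the 7 tested neighbours outside the cluster was called higher. Over all genes tested 4.36% were called higher, so 7 genes are too few to set this apart from that share. Within 100 kb of Apoe, 16 genes are annotated and 10 were tested, and the 3 called higher were Apoe, Apoc1 and Apoc4. Nectin2, a cell adhesion gene 17.5 kb to the other side of Apoe, fell from 69.0 ± 11.0 to 9.37 ± 2.87 CPM (SD, n = 4), a log2 fold change of -2.88 ± 0.25 (SE) (adjusted p = 1.64e-04, edgeR). Tomm40, which encodes a mitochondrial import channel and whose 3′ end lies 2.1 kb from Apoe, was at 74.4 ± 7.54 and 55.1 ± 4.95 CPM (SD, n = 4), a log2 fold change of -0.43 that passed with DESeq2 only (adjusted p = 0.0119) and not with edgeR (adjusted p = 0.0771; over all alternatives 0.0119 to 0.322). Clptm1, which lies on the far side of Apoc2 and 31.1 kb from Apoe, was called lower at -0.65 (adjusted p = 0.0372, edgeR), a call that held without control replicate 1 and was lost without any one of the other 7 libraries (-0.70 to -0.55, adjusted p 0.0525 to 0.0988), and also under library totals (-0.52, 0.0560), totals without Apoe (-0.46, 0.0784) and no filter on low counts (-0.66, 0.0617). Clasrp (-0.92, adjusted p = 0.319), Gm26890 (-2.49, 0.272), Relb (-0.09, 0.818) and Bcam (0.35, 0.518) were not called, and the sign of Relb turned when libraries were scaled by their totals.

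**Figure D3:**
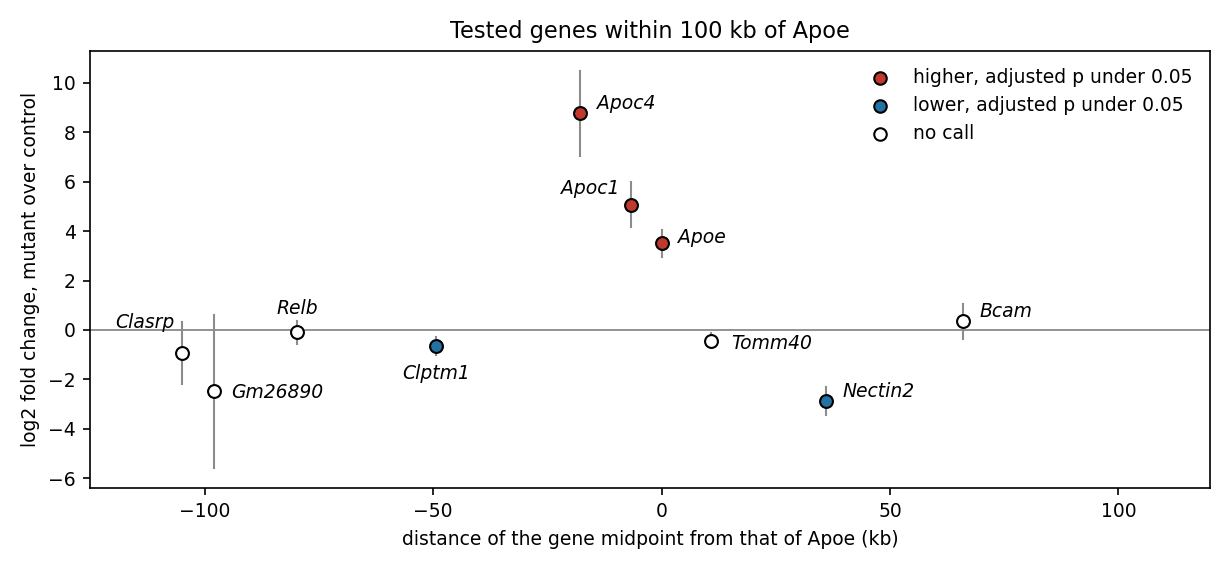
Log2 fold change of mutants over controls (vertical axis, with 95% confidence intervals) against the distance of each gene's midpoint from that of Apoe in kb, for the 10 tested genes within 100 kb of it. Red points were called higher, blue lower and white neither; Apoc4 (8.76), Apoc1 (5.07) and Apoe (3.50) stand above 0, and Nectin2 (-2.88) and Clptm1 (-0.65) below it.

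Pltp (ENSMUSG00000017754, chr2:164839518-164857711), the phospholipid transfer protein gene, was the member outside chromosome 7 with the largest fold change. Controls 1 to 4 were at 185, 173, 64.2 and 141 CPM, and mutants 1 to 4 at 585, 536, 522 and 517 CPM. All mutants were above all controls, and control replicate 3 was the lowest library. The means, 141 ± 54.3 and 540.0 ± 31.2 CPM (SD, n = 4), differed 3.84-fold (interval 2.40 to 6.13), with a log2 fold change of 1.94 ± 0.30 (SE) (adjusted p = 0.00344, edgeR). Pltp shares 495 exon bases (19.3%) with Ctsa on the opposite strand, and unstranded reads from there cannot be assigned. Ctsa itself was at 1602 ± 312 CPM in controls and 1445 ± 175 CPM in mutants (SD, n = 4; log2 fold change -0.15, adjusted p = 0.642, edgeR).

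Of the 2 cholesterol efflux transporters, Abcg1 was called higher and Abca1 was not. Abcg1 (ENSMUSG00000024030, chr17:31057675-31117988), which exports cholesterol to lipid-bearing particles, was at 95.5, 87.2, 134 and 123 CPM in controls 1 to 4 and at 188, 178, 235 and 184 CPM in mutants 1 to 4. The groups did not overlap. Its mean rose from 110 ± 22.1 to 196 ± 26.0 CPM (SD, n = 4), 1.79-fold, with a log2 fold change of 0.84 ± 0.18 (SE) (adjusted p = 0.0171, edgeR). Without control replicate 2, the lowest control, it was 0.74 and no longer called (adjusted p = 0.0533; over all alternatives 3.68e-04 to 0.0533).

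Abca1 (ENSMUSG00000015243, chr4:53030787-53159895), which starts the loading of APOE with lipid, was at 136, 197, 201 and 120 CPM in controls 1 to 4 and at 312, 205, 322 and 241 CPM in mutants 1 to 4. The groups did not overlap, but mutant replicate 2 stood only just above controls 2 and 3. The means were 164 ± 41.5 and 270 ± 56.2 CPM (SD, n = 4), a log2 fold change of 0.72 ± 0.23 (SE; interval 0.21 to 1.24) that missed the threshold (adjusted p = 0.0715, edgeR). It passed with DESeq2 (0.72, adjusted p = 0.0290), with scaling by library totals (0.84, 0.0328), with totals that left out Apoe (0.91, 0.0235) and when only genes with 10 counts in all 8 libraries were tested (0.73, 0.0463). Scaling by totals or by totals without Apoe moved the median of all genes to 0.13 and 0.20. Over the 15 alternatives the adjusted p ran from 0.0235 to 0.145 and 4 of them made the call.

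Neither gene for taking up particles, or for limiting that uptake, was called. Lrp1 (chr10:127538161-127621148), a large endocytic receptor for APOE, was at 285, 381, 499 and 430 CPM in controls 1 to 4 and at 347, 307, 346 and 230 CPM in mutants 1 to 4. These ranges overlapped, and the log2 fold change was -0.37 ± 0.21 (SE; interval -0.85 to 0.10; adjusted p = 0.280, edgeR). Mylip (chr13:45389742-45412022), a ubiquitin ligase for lipoprotein receptors, was at 83.5, 101, 112 and 112 CPM in controls 1 to 4 and at 85.9, 84.3, 59.2 and 90.3 CPM in mutants 1 to 4. These overlapped as well, and the log2 fold change was -0.35 ± 0.18 (SE; interval -0.75 to 0.05; adjusted p = 0.225, edgeR). The interval of Mylip leaves room for a fall but not for a rise of the size seen for Abcg1. Abca1 counts per 100 Lrp1 counts, an efflux gene against an uptake gene in the same library, were 47.5, 51.8, 40.3 and 28.0 in controls 1 to 4 and 89.7, 66.8, 93.0 and 105 in mutants 1 to 4.

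**Figure D4:**
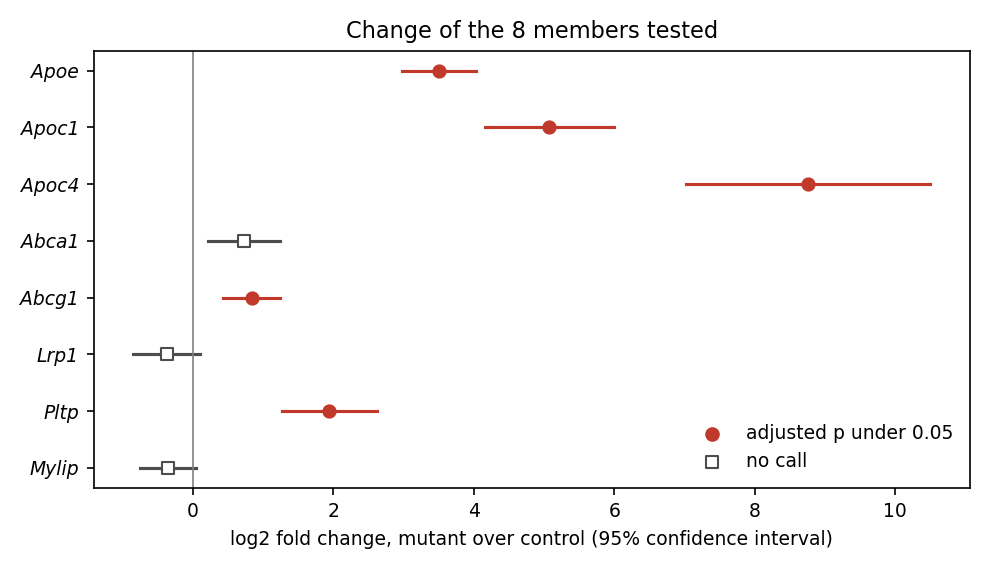
Log2 fold change of mutants over controls with its 95% confidence interval for the 8 members tested; filled red circles are calls at an adjusted p under 0.05 and open squares are no call. The 3 apolipoprotein genes lie at 3.50 or more, Pltp at 1.94 and Abcg1 at 0.84, while the intervals of Lrp1 and Mylip include 0.

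Levels of different genes compare only per length, as CPM divided by the exon length in kilobases (RPKM). In controls Apoe stood at 1933 RPKM, followed by Pltp at 54.9, Mylip at 31.6, Lrp1 at 22.5, Abca1 at 15.8, Abcg1 at 15.1 and Apoc1 at 8.95, with Apoc4 at 0.0240. In mutants the order was Apoe at 21920 RPKM, Apoc1 at 302, Pltp at 211, Abcg1 at 26.9, Abca1 at 26.0, Mylip at 24.7, Lrp1 at 17.4 and Apoc4 at 10.8. By these means Apoc1 passed from below the transporters to the second place. Its range in controls (4.62 to 12.67 RPKM) overlapped those of Abca1 (11.61 to 19.39) and Abcg1 (11.95 to 18.33). Neighbours in these orders often overlapped between mice: in controls Pltp (25.1 to 72.3 RPKM) with Mylip (25.8 to 34.7), and in mutants Abcg1 (24.4 to 32.2) with Abca1 (19.8 to 31.0) and Mylip (18.3 to 27.9). Apoe, Apoc1 and Pltp held apart from every member below them in the mutants except that the lowest Apoc1 (216 RPKM) lay within the range of Pltp (202 to 228). Exon lengths merge all annotated transcripts, which lowers the RPKM of genes with long minor isoforms.

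Across the 8 libraries, the genes most like Apoe among 10335 whose mean log2 CPM reached 3 were Cd207 (Pearson r = 0.997 on log2 CPM), Vsig4 (0.994), Ms4a7 (0.992), Gadd45g (0.989) and Clec4n (0.989). Cd207 encodes langerin and Vsig4 a complement receptor of tissue macrophages. Among members r with Apoe was 0.98 for Apoc1, 0.97 for Apoc4, 0.91 for Abcg1, 0.90 for Pltp, 0.75 for Abca1, -0.59 for Lrp1 and -0.68 for Mylip. These 8 points fall into the 2 groups compared above, so r mostly restates the difference between them.

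Among the marker lists, only that of border-associated macrophages had genes called higher. These markers rose together with Apoe, as given above, and their part in the rise was not tested. The paper also reports border-associated macrophage markers in dysmature microglia of mutants of Itgb8, a gene of the same pathway. The sum therefore cannot tell such microglia from border-associated macrophages. Astrocyte markers, over 12 genes, summed to 1610 to 2830 CPM in controls and 513 to 1730 CPM in mutants, with 1 called and that 1 lower. The difference in this sum lay in that gene, Slc1a3, at 1083 to 1756 CPM in controls and 25.8 to 170 CPM in mutants, and the other 11 summed to 368 to 1750 and 488 to 1559 CPM, with overlap. Their part in the level of Apoe was not tested. Choroid plexus markers, over 5 genes led by Ttr, summed to 7320 to 25300 CPM in controls and 25700 to 42500 CPM in mutants, with no overlap. None was called (Ttr adjusted p = 0.0903, edgeR). Control replicate 3 was the lowest control for Ttr (7073 CPM) and for Pltp (64.2 CPM). Mutant replicate 1 was the lowest mutant for Ttr (24690 CPM) and the highest for Pltp (585 CPM). The part of choroid plexus RNA in the member genes was not tested. Monocyte markers summed to 194 to 453 and 132 to 286 CPM over 6 genes, oligodendrocyte markers to 709 to 4500 and 1170 to 3800 CPM over 8, neuron markers to 38.3 to 369 and 105 to 337 CPM over 8, and endothelial and mural markers to 17.4 to 41.9 and 4.51 to 11.8 CPM over 7, of which 5 were tested. Of these only 1 endothelial or mural gene was called, as lower, and no marker in any list was at 0 in all libraries.

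The other genes of the pathway moved in both directions. Of 116 further genes of lipid handling in 6 lists, 91 were tested, 15 (16.5%) were higher and 13 (14.3%) lower, against 4.36% and 7.97% of all genes tested, and their median log2 fold change was 0.14 against 0.0112 over all genes. The lists were chosen with earlier results of these data known, so these shares describe them and test nothing. Among the called genes, Stab2 passed the filter through its mutant libraries alone and Apob through its control libraries alone. Among 13 LXR and RXR receptors and partners, 2 were higher and 2 lower, with a median of -0.12. Nr1h3, the LXRα gene, was at 2.35, 1.43, 2.54 and 0 CPM in controls 1 to 4 and at 25.7, 23.0, 18.8 and 11.4 CPM in mutants 1 to 4, with no overlap. Its log2 fold change was 3.64 ± 0.93 (SE; adjusted p = 0.0346, edgeR), and the call was lost when control replicate 1, 2 or 3 or mutant replicate 1, 2 or 3 was left out (3.49 to 3.96, adjusted p 0.0544 to 0.0952). Nr1h2, the LXRβ gene, was at 94.5 ± 8.33 and 86.7 ± 7.57 CPM (SD, n = 4; log2 fold change -0.12, adjusted p = 0.600, edgeR), with a sign that turned under scaling by totals without Apoe. Pparg rose (2.59, adjusted p = 0.00974), whereas Ppard (-2.28, 0.0140) and Rxrb (-0.83, 0.0184) fell, the last no longer called without control replicate 2 or 3 or mutant replicate 2 (-0.79 to -0.75, adjusted p 0.0509 to 0.0580).

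Of 16 known LXR targets outside the members, 14 were tested, with a median of -0.11. Of these 2 (14.3%) were higher and 2 (14.3%) lower, against 4.36% and 7.97% of all genes tested. Plin2, which coats lipid droplets, rose from 87.0 ± 24.8 to 252 ± 20.8 CPM (SD, n = 4; log2 fold change 1.53, adjusted p = 0.00176, edgeR), and Smpdl3a, a phosphodiesterase, rose by 0.98 (adjusted p = 0.0254), a call lost without control replicate 4 or mutant replicate 1 or 2 (0.92 to 0.96, adjusted p 0.0509 to 0.0704). Lpcat3, which remodels membrane phospholipids, fell by 1.93 (adjusted p = 9.43e-05, edgeR), and Mertk, a receptor for apoptotic cells, fell by 1.89 (adjusted p = 0.00345). Lpl, the lipase that APOC2 activates, was at 5.63 to 32.2 CPM in controls and 2.64 to 24.3 CPM in mutants (log2 fold change -0.13, adjusted p = 0.932), with no stable sign. Among textbook LXR targets, Apoe, Apoc1, Apoc4, Pltp, Abcg1, Plin2 and Smpdl3a were called higher and Lpcat3 and Mertk lower. The others tested, with Abca1 and Mylip among them, were not called, and the part of LXR was not tested.

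Most of the remaining apolipoproteins had too few counts to be tested. Of 20, 6 were tested, 0 were higher with edgeR (1 with DESeq2) and 1 was lower (3 with DESeq2, and 0 when 10 counts in all 8 libraries were required). Over all genes tested edgeR called 4.36% higher and 7.97% lower, and 6 genes are too few to read against these shares. Apob had 411 counts over the controls and 3 over the mutants, a ratio of 143 (exact interval 48.7 to 698, counting error only). Clu was well expressed, at 501 to 1425 CPM in controls and 1343 to 1688 CPM in mutants. It was not called (log2 fold change 0.51, adjusted p = 0.283, edgeR). Among 16 other transporters of the ABCA and ABCG families, 11 were tested, 0 were higher with edgeR (2 with DESeq2) and 2 were lower (3 with DESeq2). These 11 genes are likewise too few to read against the shares over all genes. Abcg2, a broad exporter, fell by 1.66 (adjusted p = 0.00153, edgeR), and Abca9 fell by 0.94 (adjusted p = 0.0230), a call lost without control replicate 2 or 3 or mutant replicate 2 or 4 (-0.92 to -0.81, adjusted p 0.0524 to 0.0682).

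Lipoprotein and scavenger receptors moved in both directions. Of 28, 25 were tested, with a median of 0.14. Of these 7 (28.0%) were higher and 4 (16.0%) lower, against 4.36% and 7.97% of all genes tested. The 4 lower calls became 2 without control replicate 3 or 4 or mutant replicate 2 or 4, and with totals without Apoe. Stab2, a scavenger receptor of sinusoidal endothelium, had 0 counts in the controls and 470 over the mutants, which is at least 150-fold higher taking 3 counts over the control group as the floor. Stab2 passed the filter on low counts through its mutant libraries alone, and the shares above describe the list and test nothing. Msr1, the class A scavenger receptor of macrophages, rose from 6.55 ± 3.93 to 366 ± 86.9 CPM (SD, n = 4; log2 fold change 5.80, adjusted p = 1.33e-04, edgeR). Sort1, a sorting receptor, fell by 2.38 (adjusted p = 4.82e-05, edgeR), and Trem2, a lipid-sensing receptor for which APOE is a ligand, fell by 1.35 (adjusted p = 0.00496). Vldlr (0.46, adjusted p = 0.599, edgeR) and Lrp8 (0.14, 0.896), 2 relatives of Lrp1, were not called, and the sign of Lrp8 turned without control replicate 3 (-0.098) or mutant replicate 1 (-0.18).

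Of 27 genes of lipid transfer, lipases and lysosomal cholesterol export, 24 were tested, with a median of 0.43. Of these 4 (16.7%) were higher and 2 (8.33%) lower, against 4.36% and 7.97% of all genes tested. Ch25h and Cyp27a1, both among the risers, encode enzymes that make oxysterols. Cyp46a1 (0.12, adjusted p = 0.955, edgeR) and Cyp7b1 (0.69, 0.350), sterol hydroxylases of the same list, were not called. Any part of LXR in these levels was not tested. Ch25h, cholesterol 25-hydroxylase, was at 0 to 0.755 CPM in controls and 10.6 to 16.6 CPM in mutants (log2 fold change 5.39, adjusted p = 0.00960, edgeR), and Cyp27a1, sterol 27-hydroxylase, rose by 1.78 (adjusted p = 0.00210). Gramd1a, a sterol transfer protein, fell by 1.81 (adjusted p = 0.00840), and Stard3, a late endosomal sterol transporter, fell by 1.41 (adjusted p = 9.34e-04). Npc1 (-0.79, adjusted p = 0.0996) and Npc2 (0.29, 0.246), which release cholesterol from lysosomes, were not called by edgeR, and Npc1 was called without control replicate 1 (-0.99, adjusted p = 0.0236) and with DESeq2 (-0.79, 0.0491; over all alternatives 0.0236 to 0.252).

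**Figure D5:**
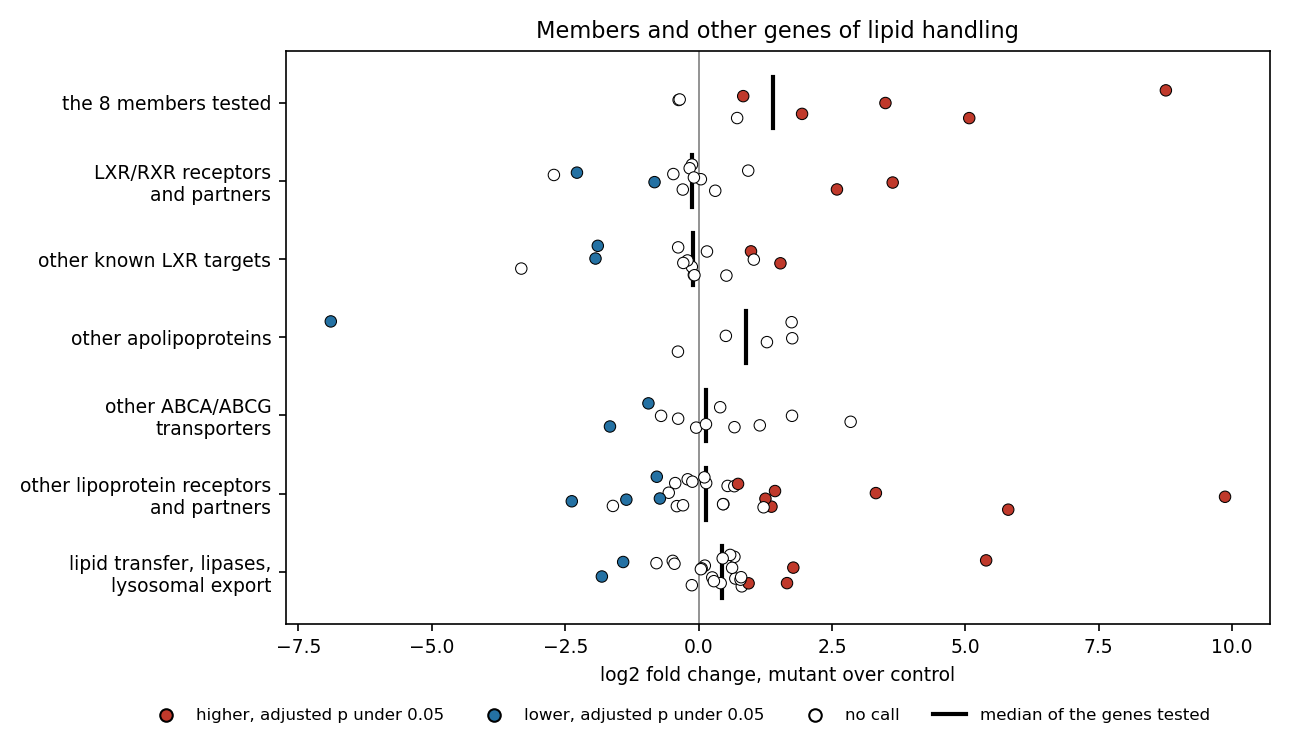
Log2 fold change of mutants over controls (horizontal axis) for the 8 members tested and for the tested genes of 6 lists of lipid handling genes; each point is 1 gene, red was called higher, blue lower and white neither, and black bars are medians. The median is 1.39 over the members and between -0.12 and 0.90 over the lists, whose called genes lie on both sides of 0; a gene in 2 lists is drawn in both.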

How the data were processed

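Per the labels, microglia of 8 mice at postnatal day 60 were profiled with 1 library each, and the file's 8 columns were matched to 4 control and 4 mutant titles. Reads had been aligned by Rsubread against mm10 and assigned to genes by featureCounts, and the authors deposited the raw counts, which were used unchanged. The labels name single-end Nextera XT libraries and the Methods paired-end NEBNext Ultra II libraries, both unstranded. Another deposit is cited in the Methods for the Smad2/3 experiment, which the titles of these libraries match. A table of the authors' DESeq2 1.28 comparison (fold changes with errors, statistics and p-values) was not used.

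The 20153 genes that reached 10 counts in 4 or more of the 8 libraries were fitted with edgeR 4.0.16 in R 4.3.3 (TMM, glmQLFit, glmQLFTest, no covariate, Benjamini-Hochberg over all tested genes, called at an adjusted p under 0.05). The common biological coefficient of variation was 0.542. On simulated counts for these genes, with 200 changed by 2 on the log2 scale, edgeR recovered 64% and 5.19% of its 135 calls were false, and DESeq2 1.42.0 recovered 80.5% with 36.9% of 255 false. The simulation used edgeR's dispersions and changed far fewer genes than the 12.3% called in the data. Its false shares therefore do not carry over to the data. Alternatives were DESeq2, RLE factors, library totals with and without Apoe, 2 other filters, a replicate block, and leaving out each library. Coordinates, exon lengths and exon overlaps come from GENCODE M21 on GRCm38, and promoters from RefSeq. Exact intervals and floors cover counting error only, since the reads carry no molecular identifiers.

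Genes named besides the members are the targeted and sex-linked genes, the 2 largest called rises and falls in each pathway list and further genes of lipid handling, 1 of which is not reported here, the tested genes within 100 kb of Apoe and the 5 most like it. Ctsa, Ttr, Slc1a3, Cx3cr1, Clu, Cyp46a1 and Cyp7b1 were named after their values were seen. The members and lists were chosen with earlier results of these data known. Python 3.11.15 with pandas 2.3.3 and scipy 1.17.1 made the tables, and matplotlib 3.10.9 the plots.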

Additional observations from a re-analysis of the deposited data

Results flagged for a closer look

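Apoc2 stood at 0.112 CPM in control replicate 3 and at 0 in the other 3 controls, a gap equal to the whole range of the group and above Dixon's 95% critical value for 4 samples. The value rests on 4 counts. With 1 library above 0 and the rest at 0, the gap equals the range whatever the value. The chance rate of about 1 in 20 groups, which assumes continuous values, therefore does not apply to this flag. Of the 18 member groups examined, 1 was flagged.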

How the results depend on the processing

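Apoe, Apoc1, Apoc4 and Pltp were called higher under every alternative that could be fitted, and Lrp1 and Mylip under none. The number of members called higher was 4 without control replicate 2 and otherwise 5 or 6, and none was called lower in any fit. Apoc4 fell out when 10 counts in all 8 libraries were required. Abca1 passed at 0.72 with DESeq2, 0.84 with library totals, 0.91 with totals without Apoe and 0.73 with the stricter filter, and the cause was not tested. Leaving out 1 library gave 3.36 to 3.64 for Apoe, 4.86 to 5.34 for Apoc1, 8.35 to 9.19 for Apoc4, 1.70 to 2.10 for Pltp, 0.74 to 0.95 for Abcg1 and 0.63 to 0.84 for Abca1. The same fits called 525 to 1024 genes higher and 1005 to 1587 lower, with the lowest counts without control replicate 2 (525 and 1047) and control replicate 3 (562 and 1005), and 573 higher without mutant replicate 2. DESeq2 called 2089 genes higher and 2662 lower against 878 and 1607 with edgeR. It made more false calls on simulated counts, but these had fewer changed genes and edgeR's dispersions. The simulation therefore cannot say how many of the further DESeq2 calls are false.

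Signs turned only for genes that were not called. Lpl was 0.062 with totals without Apoe and ran from -0.58 without mutant replicate 1 to 0.64 without control replicate 4, and it was 0.22 without mutant replicate 3. Lrp8 ran from -0.18 without mutant replicate 1 to 0.43 without mutant replicate 3 and was -0.098 without control replicate 3. Nr1h2 was 0.064 with totals without Apoe. Relb was 0.027 with totals and 0.093 with totals without Apoe, and ran from -0.21 without mutant replicate 1 to 0.032 without mutant replicate 3, with 0.012 without control replicate 4.

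The labels number the mice 1 to 4 in each group without saying what a number pairs, and the deviations of same-numbered libraries from their group means correlated at 0.166, 0.0183, 0.144 and 0.114, so the numbers were not taken as pairs. Across the groups, the libraries numbered 1, 3 and 4 correlated best with their own number, and those numbered 2 did not. The block was therefore kept as an alternative only. Adding the replicate block to the fit, 886 genes were called higher and 1497 lower. The block gave 5 members higher and 0 lower. The Clptm1 call was lost under the block (-0.64, adjusted p = 0.0557). Depth limits the control level of Apoc4, at 0 to 4 counts per library.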
